A study of Homo sapiens with 12 samples.

Results

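The 7 genes described here are long noncoding RNAs grouped as RNAs of the nucleus, though some are also found in the cytoplasm. They are MALAT1, NEAT1, TUG1, NORAD, OIP5-AS1, PVT1 and KCNQ1OT1. They were taken by name, by matching their symbols to the Ensembl identifiers of the 61906 genes in each count table, and all 7 were found. The libraries came from MOLM-14, a human acute myeloid leukemia cell line. In the knockdown experiment the cells were transduced by lentivirus with an shRNA against DDX5 (shDDX5) or a control shRNA (shControl) and collected 96 hours after infection. In the drug experiment the cells were kept for 6 hours in RX-5902 at 100 nM, a compound directed at the phosphorylated form of DDX5, or in 0.1% DMSO. Each of the 4 groups held 3 libraries that the labels call biological replicates. The labels name 1 shRNA target, 1 cell line and 1 dose, with no rescue of DDX5, so other effects of the shRNA cannot be told apart from loss of DDX5. The experiments differ in time, agent and delivery, and share no library.

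Long noncoding RNAs are transcribed like messenger RNAs but carry no long reading frame, and several work as scaffolds. NEAT1 is the architectural core of paraspeckles, nuclear bodies that hold RNA-binding proteins, and MALAT1 gathers in the splicing-factor-rich nuclear speckles. KCNQ1OT1 silences an imprinted gene cluster in cis, and PVT1 lies beside MYC. TUG1, NORAD and OIP5-AS1 are found in both nucleus and cytoplasm, where NORAD binds Pumilio proteins through many repeated sites. DDX5 is a DEAD-box RNA helicase of transcription, splicing and microRNA processing.

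Total counts ran from 17603589 to 20367575 per library, and all 7 genes passed the expression filter in both experiments. DDX5 stood at 166, 166 and 163 CPM (counts scaled to library size) in shDDX5 libraries and at 761, 726 and 735 CPM in shControl libraries, 4.55-fold lower (log2 fold change -2.19, standard error 0.08, edgeR adjusted p = 3.44e-06). DDX5 rose with RX-5902 by 0.31 on the log2 scale (adjusted p = 1.47e-08). The library shDDX5 replicate 1 stood apart from the rest: genes with at least 16 kb of exon deviated there by a median of -0.40 (log2) and genes under 1 kb by 0.22. Several results that rest on it are given with and without it, and the other knockdown values include it. Fits without it hold 2 shDDX5 libraries against 3 shControl libraries. The library was singled out because it stood apart in these same data, so adjusted p-values from those fits can overstate the evidence. Of 15 genes of myeloid leukemia identity 1 was at 0 throughout the shDDX5 libraries and 2 throughout the shControl libraries, 1 in RX-5902 and 2 in DMSO. The list summed to 13847 to 15722 CPM in shDDX5 libraries and 4437 to 4759 CPM in shControl libraries, most of it the lysozyme gene LYZ, and to 1354 to 1365 CPM with RX-5902 and 1441 to 1509 CPM with DMSO. Its genes went both ways. Of 13 tested after knockdown, 7 were higher and 5 lower at edgeR adjusted p under 0.05, beside 56.7% of all genes tested. Of 12 tested with RX-5902, 6 were higher and 5 lower, beside 64.1%. MEIS1, HOXA9 and FLT3 averaged 3.09, 10.4 and 275 CPM in shDDX5 libraries, against 20.2, 31.4 and 386 CPM in shControl libraries. CD33, CSF1R and ITGAM went the other way, at 122, 107 and 104 CPM against 64.0, 66.3 and 42.5 CPM. With RX-5902 MEIS1, HOXA9 and FLT3 averaged 57.1, 60.8 and 377 CPM, against 42.5, 42.8 and 422 CPM with DMSO. A list of 6 T and NK cell genes summed to 111 to 169 CPM in shDDX5 libraries and 70.6 to 76.1 CPM in shControl libraries, nearly all from NKG7 and GNLY, while CD3E and CD8A were at or near 0. NKG7 stood at 152, 98.2 and 96.8 CPM in shDDX5 libraries and averaged 53.7 CPM in shControl libraries. GNLY averaged 14.5 CPM against 18.6 CPM, and CD3D 0.24 CPM against 1.43 CPM. Of the 3 tested after knockdown, 1 was higher and 2 lower at edgeR adjusted p under 0.05. With RX-5902 the T and NK cell list summed to 23.4 to 25.9 CPM, and with DMSO to 14.8 to 15.9 CPM. Lists for B cells, erythroid cells, megakaryocytes, fibroblasts and epithelial or packaging cells summed to at most 20.3 CPM in any library. The part of these markers in the changes below was not tested. In bulk RNA, fewer cells of a state and less RNA per cell cannot be told apart.

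How much of each gene could collect reads differed sharply between the 7, and MALAT1 was the extreme case. Of its 8829 merged exon bases, 88.5% were shared with exons of other entries in the same table, chiefly its antisense transcript TALAM1 with 7205 bases and the antisense entry ENSG00000270117 with 610. The share was 14.4% for TUG1, 7.72% for OIP5-AS1, 3.02% for PVT1, 2.13% for NEAT1, 1.23% for KCNQ1OT1 and 0 for NORAD. Among lncRNA-class genes of at least 500 bases that lay wholly under exons of the other strand, 0 of 224 had any read in the 12 libraries. Of 7403 lncRNA-class genes with no shared base, 47.3% had reads. For protein-coding genes the same shares were 1 of 13 and 76.9% of 10371. Genes that lay wholly in exon bases shared with the other strand thus held almost no reads. TALAM1 itself had 2 reads over all libraries.

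The bases left to MALAT1 numbered 1014, and 747 of them lay upstream of the later of the 2 starts that RefSeq gives the gene. The other 267 bases, at chr11:65499045-65499311 (GRCh38, plus strand), open the RNA made from that later start. They are printed because they are the part of that transcript that the count of MALAT1 can see. All letters are in lower case, since no motif is marked.
MALAT1: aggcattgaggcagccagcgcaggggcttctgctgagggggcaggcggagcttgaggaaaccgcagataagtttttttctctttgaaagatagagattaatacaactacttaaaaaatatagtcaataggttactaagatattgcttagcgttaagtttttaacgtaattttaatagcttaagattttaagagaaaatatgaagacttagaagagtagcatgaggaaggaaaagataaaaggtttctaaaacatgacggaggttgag
MALAT1 is known as one of the most abundant nuclear RNAs, while its counts here were 33, 127 and 101 reads in shDDX5 libraries against 79, 59 and 69 in shControl libraries. They were 19, 26 and 32 reads with RX-5902 against 12, 21 and 25 with DMSO. These counts describe the unshared stretches and not the level of the whole RNA. The plot of exon bases shows how far MALAT1 differs in this from the other 6.

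**Figure D1:**
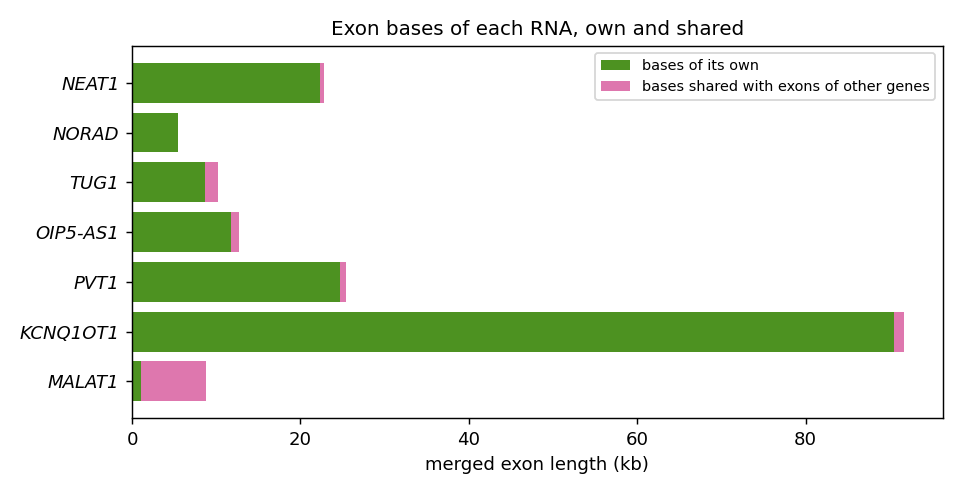
Merged exon length of each RNA in kb, split into bases of its own (green) and bases shared with exons of other genes on either strand (pink). MALAT1 keeps 1014 of 8829 bases, whereas the other 6 keep most of theirs.

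Per kilobase of merged exon, NORAD was the highest of the 7 in all 4 groups. It averaged 45.6 ± 5.75 CPM per kb in shDDX5 libraries and 38.8 ± 2.87 in shControl libraries (SD, n = 3 each). With RX-5902 it averaged 57.6 ± 1.81 CPM per kb, and with DMSO 37.4 ± 0.84. TUG1 followed at 14.5 to 20.5 CPM per kb over the group means, then OIP5-AS1 at 5.82 to 9.64 and NEAT1 at 2.53 to 7.63, and with RX-5902 NEAT1 at 7.63 stood above OIP5-AS1 at 7.15. PVT1 lay at 0.77 to 1.58 CPM per kb, MALAT1 at 0.11 to 0.55 and KCNQ1OT1 at 0.04 to 0.09. The place of PVT1 depends on the length used: over its longest annotated transcript of 1699 bases, in place of 25431 merged bases, it averaged 11.5 to 23.7 CPM per kb. Over its own 1014 bases alone, MALAT1 averaged 4.79 CPM per kb in shDDX5 libraries, 3.40 in shControl, 1.22 with RX-5902 and 0.93 with DMSO. That length was chosen after the sharing had been seen.

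In CPM, the order of the 4 groups differed between the 7, and the control groups, which come from separate experiments, differed from each other too. NORAD was highest with RX-5902, and its shDDX5, shControl and DMSO levels followed with overlap between neighbours. NEAT1 fell in the order RX-5902, shDDX5, shControl and DMSO with no overlap between neighbours. TUG1 ran from shDDX5 over shControl to RX-5902 with overlap, and DMSO lay below RX-5902 without it. OIP5-AS1 was highest in DMSO libraries, overlapped between shControl and RX-5902, and was lowest in shDDX5 libraries. PVT1 overlapped between shDDX5 and shControl, and was lower without overlap in RX-5902 libraries than in DMSO libraries, both below the knockdown experiment. KCNQ1OT1 in RX-5902 libraries lay below DMSO libraries and above both knockdown groups, which overlapped. MALAT1 overlapped between shDDX5 and shControl, and both lay above the drug experiment, where its groups overlapped.

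**Figure D2:**
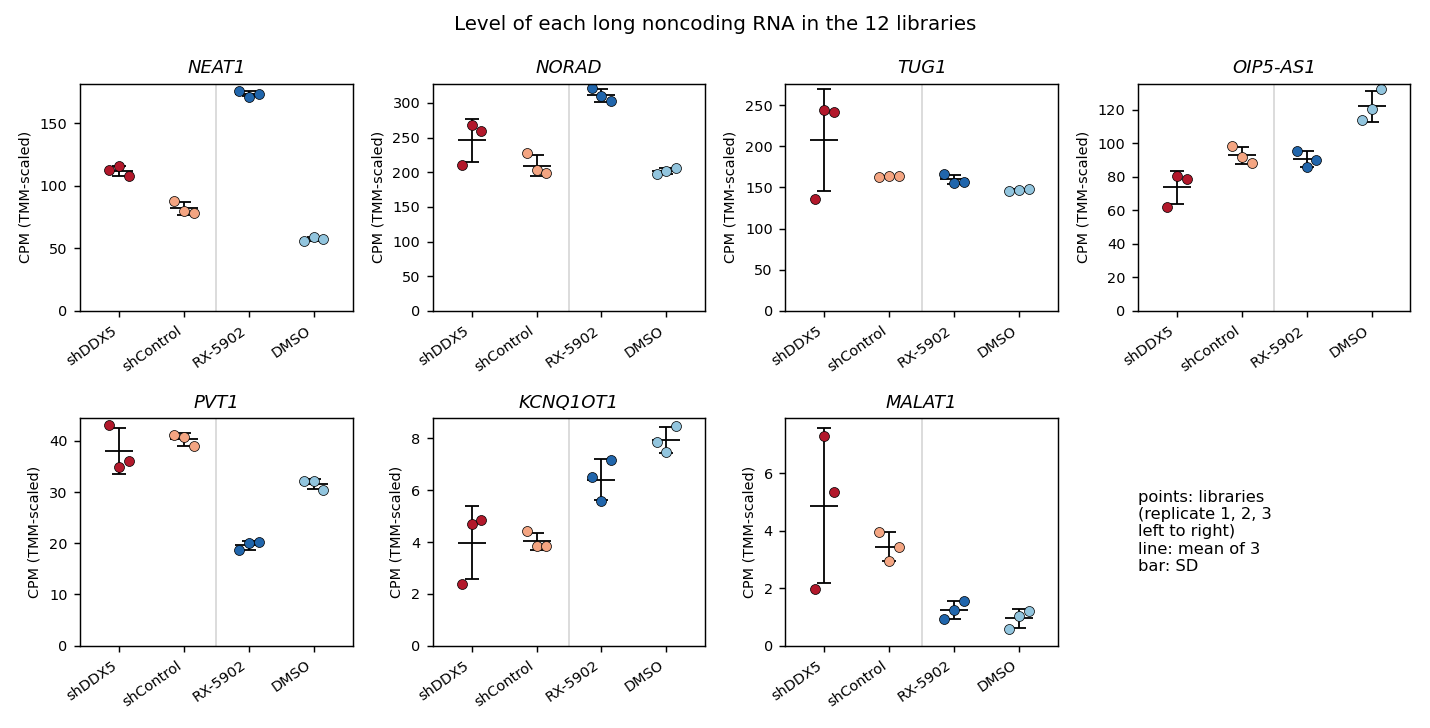
TMM-scaled CPM of each RNA (vertical axes from 0) in the shDDX5, shControl, RX-5902 and DMSO libraries, with the mean of 3 as a line and the SD as a bar. NEAT1 lies at 172 to 176 CPM with RX-5902 and 56.1 to 59.3 CPM with DMSO, and shDDX5 replicate 1 stands away from its group in TUG1, KCNQ1OT1 and MALAT1.

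A gene passed the test where the edgeR quasi-likelihood p, adjusted over all genes tested, was under 0.05, and rose and fell are used of such genes. After DDX5 knockdown 2 of the 7 passed, NEAT1 higher and OIP5-AS1 lower, where 56.7% of all 14463 genes tested passed, 28.4% higher and 28.3% lower. Of 1707 lncRNA-class genes 46.2% passed. With RX-5902, 5 of the 7 passed: NEAT1 and NORAD were higher, and PVT1, OIP5-AS1 and KCNQ1OT1 were lower. The background there was 64.1% of 13941 genes, 32.2% higher and 31.9% lower, and 44.2% of 1610 lncRNA-class genes. These shares are also the background for the counts of gene lists below. The groups did not overlap for 2 of the 7 after knockdown and for 6 of the 7 with RX-5902, against backgrounds of 66% and 67.5% of genes. The count of 2 of 7 lies below the share over all genes, and 5 of 7 lies near it. Without shDDX5 replicate 1, 6 of the 7 passed after knockdown, all but KCNQ1OT1, with a background of 71.4% of 14916 genes. The change in the knockdown differed from the change with the drug for 3 of the 7, NEAT1, NORAD and PVT1, where 52.7% of 15386 genes differed.

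**Figure D3:**
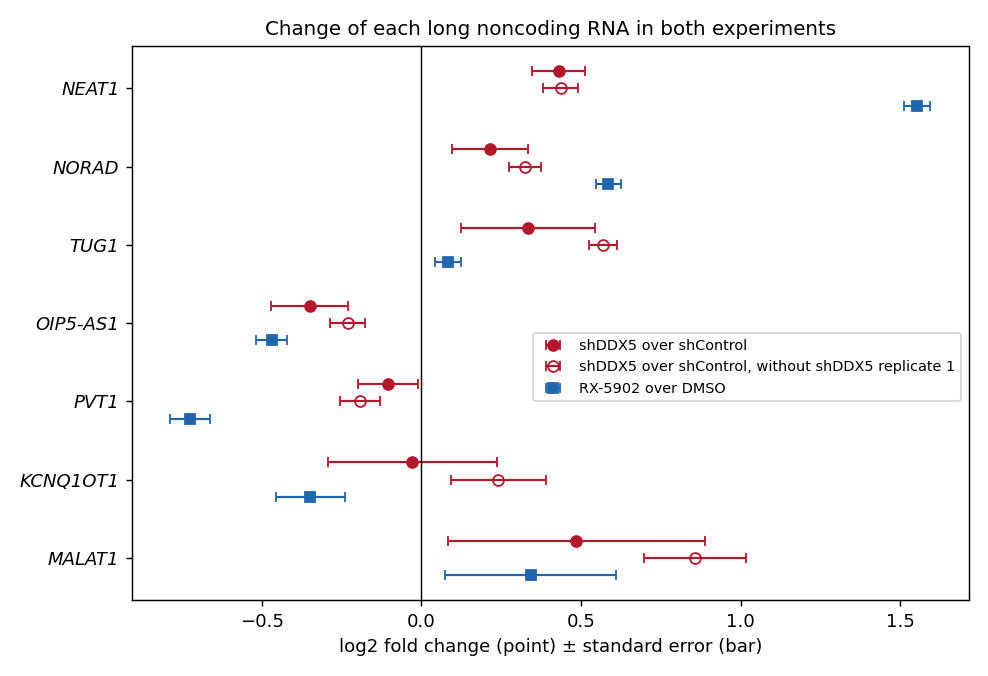
Log2 fold change of each RNA (horizontal axis) with its standard error, for shDDX5 over shControl (filled circles), the same without shDDX5 replicate 1 (open circles) and RX-5902 over DMSO (squares). The rise of NEAT1 with RX-5902, 1.55, is the largest change, and the bars of the knockdown shrink without that 1 library.

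NEAT1 (chr11:65422774-65445540, plus strand, GRCh38) rose in both experiments and most with the drug. It stood at 176, 172 and 174 CPM in RX-5902 libraries, against 56.1, 59.3 and 57.7 CPM in DMSO libraries. The groups lay far apart, a 2.93-fold rise (log2 fold change 1.55, standard error 0.04, adjusted p = 4.01e-25). Among the 284 lncRNA-class genes that averaged 5 CPM or more in that experiment, this was the rise ranked 4. After knockdown NEAT1 stood at 113, 116 and 108 CPM in shDDX5 libraries, against 88.0, 80.01 and 78.3 CPM in shControl libraries. The groups again did not overlap, and the rise was 1.35-fold (log2 fold change 0.43, standard error 0.08, adjusted p = 0.00265). With a correction for merged exon length the rise was 0.73 (adjusted p = 0.00104), although NEAT1 was not low in shDDX5 replicate 1 as long genes were. In the uncorrected fit the rise of NEAT1 ranked 121 among 304 lncRNA-class genes, with a median of 0.23 over them.  Its short and long isoforms share their start and were counted as 1 gene, so they cannot be told apart here.

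Genes for the proteins that NEAT1 gathers mostly fell in the knockdown. Of 25 paraspeckle protein genes tested, 1 rose and 17 fell after DDX5 knockdown (median log2 fold change -0.49, with a median close to 0 over all genes). Leaving out shDDX5 replicate 1 gave 2 and 19. TAF15, an RNA-binding protein, fell by 1.39 on the log2 scale (adjusted p = 3.43e-05). HNRNPR fell by 1.09 (adjusted p = 1.57e-05), and SFPQ, a core protein needed for paraspeckles, fell by 0.98 (adjusted p = 3.78e-05). The core proteins NONO and PSPC1, named after their values were seen, did not pass, at 0.18 and 0.13 (adjusted p = 0.0965 and 0.197), and without shDDX5 replicate 1 NONO passed at 0.13 (adjusted p = 0.00932). With RX-5902, 6 of the 25 rose and 15 fell (median -0.15 beside 0.01 over all genes). HNRNPH3 fell by 0.48 (adjusted p = 7.72e-13), PSPC1 fell by 0.27 (adjusted p = 4.11e-07) and NONO rose by 0.10 (adjusted p = 0.0195). FAM98A, found in paraspeckles by localization screens, fell by 1.06 (adjusted p = 1.99e-19). Of the genes beside NEAT1 and MALAT1, FRMD8 rose by 0.75 after knockdown and by 0.26 with RX-5902. LTBP3 did not pass in either, at 0.35 after knockdown (0.08 without shDDX5 replicate 1) and -0.32 with RX-5902.

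MALAT1 (chr11:65497688-65506516, plus strand) showed no change that passed in either experiment, on 12 to 127 reads a library. It stood at 1.95, 7.28 and 5.34 CPM in shDDX5 libraries, against 3.97, 2.94 and 3.43 CPM in shControl libraries. Replicate 1 of shDDX5 was the lowest and the other 2 the highest of the 6 (log2 fold change 0.49, standard error 0.40, adjusted p = 0.330). Without that library the change was 0.86 (adjusted p = 1.87e-05). With RX-5902 it stood at 0.91, 1.24 and 1.55 CPM, against 0.59, 1.03 and 1.21 CPM with DMSO. The groups overlapped (0.34, standard error 0.27, adjusted p = 0.268). The 95% intervals, -0.44 to 1.41 after knockdown and -0.20 to 0.89 with the drug, leave room for a change of either sign.

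Genes around the work of MALAT1 were better measured. Of 19 genes for nuclear speckle proteins and MALAT1 partners, 1 rose and 13 fell after knockdown (median -0.53), and 2 rose and 11 fell with RX-5902 (median -0.20). The knockdown counts were 1 and 17 without shDDX5 replicate 1. EZH2, the Polycomb methyltransferase that MALAT1 can bind, fell by 1.17 after knockdown (adjusted p = 1.12e-05) and rose by 0.33 with RX-5902 (adjusted p = 9.73e-09). After knockdown BCLAF1 fell by 1.25 (adjusted p = 3.01e-05). METTL16, which binds the triple helix at the MALAT1 end, fell by 0.93 (adjusted p = 5.82e-05). With RX-5902 the splicing factors SRSF2 and SRSF1 fell by 0.63 and 0.57, and the export adaptor ALYREF fell by 0.52 (adjusted p = 5.24e-16, 3.97e-14 and 1.83e-13).

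The 3' ends of MALAT1 and long NEAT1 are cut by RNase P and trimmed beside a tRNA-like element by RNase Z. Of 12 genes for these enzymes, 1 rose and 8 fell with RX-5902 (median -0.54), whereas 3 rose and 5 fell after knockdown (median 0.07). Without shDDX5 replicate 1 the knockdown counts were again 3 and 5, with a median of 0.0016. POP1, a large RNase P subunit, fell by 1.09 with RX-5902 (adjusted p = 6.24e-18) and by 1.27 after knockdown (adjusted p = 4.39e-05). The RNase Z gene ELAC2 fell by 0.64 with RX-5902 and by 0.61 after knockdown. The other RNase Z gene, ELAC1, rose by 0.41 with RX-5902 (adjusted p = 0.000613) and by 0.66 after knockdown (adjusted p = 0.0147), and the RNase P subunit genes RPP25 and RPP38 rose after knockdown by 0.42 and 0.59 (adjusted p = 0.0164 and 0.0254), and RPP38 by 0.36 without shDDX5 replicate 1. ELAC1, RPP25 and RPP38 were named after their values were seen. RPP40 fell by 0.97 with RX-5902, and POP4 by 0.48 after knockdown.

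NORAD (chr20:36045618-36051018, minus strand) keeps the genome stable by holding Pumilio proteins away from their targets. Its 5339-base transcript holds 15 matches to the Pumilio element TGTANATA on the sense strand, 2.81 per kb. By count this ranked 4 among 13694 tested genes, taking the longest annotated transcript of each, of which the median held 0. KCNQ1OT1 held 9 matches over 91667 bases, NEAT1 6, TUG1 2, OIP5-AS1 1, and MALAT1 and PVT1 0. The first 200-base window of NORAD with the most matches, 3, is shown to let the element be seen, at chr20:36048306-36048505 (GRCh38, minus strand, GENCODE 29 transcript). Capitals mark the matches.
NORAD: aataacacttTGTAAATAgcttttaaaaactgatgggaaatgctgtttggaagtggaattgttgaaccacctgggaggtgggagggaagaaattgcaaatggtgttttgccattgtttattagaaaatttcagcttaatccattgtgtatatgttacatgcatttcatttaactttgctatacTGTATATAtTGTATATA

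NORAD rose with RX-5902 to 321, 309 and 302 CPM, against 198, 202 and 207 CPM in DMSO libraries. The groups were well apart, with a 95% interval of 1.42- to 1.59-fold (log2 fold change 0.59, standard error 0.04, adjusted p = 6.76e-15), and it ranked 39 of 284 lncRNA-class genes from the top. After knockdown it stood at 211, 269 and 259 CPM in shDDX5 libraries, against 227, 203 and 199 CPM in shControl libraries. Replicate 1 lay within the shControl range and the other 2 above it (0.22, standard error 0.12, adjusted p = 0.158). Without that library the change was 0.32 (adjusted p = 1.09e-06). Of 12 genes for NORAD partners and Pumilio regulators, 1 rose and 7 fell after knockdown (median -0.48), and 4 rose and 5 fell with RX-5902 (median -0.03). In the fit without shDDX5 replicate 1, 2 rose and 9 fell. The cohesin subunit SMC1A fell by 2.27 (adjusted p = 1.18e-05), and its partner SMC3 fell by 1.34 (adjusted p = 2.53e-05). TOP1, the topoisomerase in a complex described with NORAD, fell by 1.01 (adjusted p = 2.66e-05). With RX-5902 PRPF19, of the same complex, fell by 0.67 (adjusted p = 1.21e-15). The neighbours EPB41L1 and CNBD2 were too low to test, at most 1.02 and 0.35 CPM.

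TUG1 (chr22:30969245-30979395, plus strand), which can guide Polycomb repression, did not pass in either experiment. It stood at 136, 245 and 242 CPM in shDDX5 libraries, against 162, 164 and 164 CPM in shControl libraries. Replicate 1 was the lowest of the 6, while the other 2 were the highest (log2 fold change 0.33, standard error 0.21, adjusted p = 0.207). Without it the rise was 0.57 (adjusted p = 5.68e-13). With RX-5902 it stood at 166, 156 and 157 CPM, against 145, 147 and 148 CPM with DMSO. The groups did not overlap but lay close (0.08, standard error 0.04, adjusted p = 0.0656, 95% interval 0.00 to 0.16), and the call was gained under total-count, upper-quartile and GC-corrected scaling. MORC2, whose start lies beside that of TUG1 on the other strand, fell by 0.56 after knockdown (adjusted p = 0.0327) and by 0.30 with RX-5902 (adjusted p = 2.13e-06). The knockdown value was -0.35 without shDDX5 replicate 1 (adjusted p = 1.01e-05). SMTN, on the other side, rose by 0.60 and 1.40.

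OIP5-AS1 (chr15:41283990-41309737, plus strand), a sponge for microRNAs and for the RNA-binding protein HuR, was lower in both experiments. It stood at 95.7, 86.0 and 90.2 CPM in RX-5902 libraries, against 114, 120 and 132 CPM in DMSO libraries. The groups were apart, and it fell 1.38-fold (log2 fold change -0.47, standard error 0.05, adjusted p = 4.00e-10). After knockdown it stood at 62.1, 80.3 and 78.7 CPM in shDDX5 libraries, against 98.2, 92.1 and 88.1 CPM in shControl libraries. The groups did not overlap (log2 fold change -0.35, standard error 0.12, adjusted p = 0.0360). This call sat near the threshold: it was lost when any 1 shControl library was left out and under GC or length correction. Without shDDX5 replicate 1 it was -0.23 (adjusted p = 0.000319). OIP5, the gene it is antisense to, fell after knockdown by 1.30 (adjusted p = 0.000996) and did not pass with RX-5902, at 0.03. Of the 1201 exon bases of OIP5, 817 lay under exons of the other strand, and its levels were 1.16 to 7.31 CPM. CHP1 rose by 0.49 with RX-5902 (adjusted p = 1.20e-10) and was at -0.11 after knockdown (adjusted p = 0.352), and at -0.17 without shDDX5 replicate 1 (adjusted p = 0.0128). NUSAP1, which shares most of its exon bases with other entries, passed in neither, at -0.46 and 0.39.

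The promoters of OIP5-AS1, NORAD and TUG1 are shown because these are the 3 well-counted members that the RefSeq table (GRCh38.p14) holds, each from 250 bases before the start to 50 after it. MALAT1 is the only other member matched there, with 2 starts. Capitals mark the E box CACGTG, the palindrome bound by MYC with MAX and by related factors. They lie at chr15:41283740-41284039 (plus strand), chr20:36050911-36051210 (minus strand) and chr22:30969015-30969314 (plus strand).
OIP5-AS1: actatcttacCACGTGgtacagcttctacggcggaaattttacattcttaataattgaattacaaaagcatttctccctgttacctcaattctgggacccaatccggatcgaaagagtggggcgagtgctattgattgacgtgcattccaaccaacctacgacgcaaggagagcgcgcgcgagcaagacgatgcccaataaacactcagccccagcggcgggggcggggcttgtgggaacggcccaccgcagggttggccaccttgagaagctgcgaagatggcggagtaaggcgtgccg
NORAD: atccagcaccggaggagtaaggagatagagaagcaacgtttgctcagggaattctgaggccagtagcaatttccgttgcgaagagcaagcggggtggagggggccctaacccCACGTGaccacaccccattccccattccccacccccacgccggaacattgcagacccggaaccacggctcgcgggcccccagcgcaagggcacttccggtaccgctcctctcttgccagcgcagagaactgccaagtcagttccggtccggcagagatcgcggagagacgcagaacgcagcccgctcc
TUG1: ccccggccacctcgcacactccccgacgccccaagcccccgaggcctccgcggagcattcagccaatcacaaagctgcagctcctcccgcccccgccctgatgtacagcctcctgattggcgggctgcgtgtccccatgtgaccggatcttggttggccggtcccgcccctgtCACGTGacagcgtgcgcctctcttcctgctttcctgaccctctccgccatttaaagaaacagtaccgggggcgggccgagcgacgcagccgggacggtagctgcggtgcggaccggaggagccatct
Each of the 3 windows holds 1 E box, and the MALAT1 windows hold 0. Over 35116 promoters of the same length, 7.26% hold at least 1. The GC box GGGCGG, searched on both strands, occurs 4 times in TUG1, 1 time in OIP5-AS1 and 0 times in NORAD, and 45% of all promoters hold it. The CCAAT box CCAAT occurs 2 times each in TUG1 and OIP5-AS1 (34.6% of all promoters), and the element TGACGTCA in none of them (1.85%). No match of the 4 motifs overlaps another in these windows, and a match is a description of the sequence only. The 3 genes did not move alike with RX-5902: NORAD was higher, OIP5-AS1 lower, and TUG1 did not pass.

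PVT1 (chr8:127794526-128187101, plus strand) lies downstream of MYC, whose enhancers it harbours and with which it is often co-amplified. It fell with RX-5902 to 18.6, 19.96 and 20.2 CPM, against 32.1, 32.2 and 30.4 CPM in DMSO libraries. The groups were clearly apart, a 1.65-fold fall (log2 fold change -0.72, standard error 0.06, adjusted p = 4.76e-12). After knockdown it stood at 43.2, 34.9 and 36.0 CPM in shDDX5 libraries, against 41.2, 40.7 and 38.9 CPM in shControl libraries. Replicate 1 was the highest of the 6 and the other 2 the lowest (-0.10, standard error 0.09, adjusted p = 0.378). Without that library PVT1 was lower by a change of -0.19 (adjusted p = 0.00796). With a correction for merged exon length over all libraries the sign turned, to 0.23. That length is 25431 bases for PVT1, against 1699 in its longest annotated transcript. PVT1 did not follow the fall of long genes in shDDX5 replicate 1, so the turned sign rests on an adjustment for a trend it did not show.

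MYC fell in both experiments and further than PVT1. It stood at 145, 151 and 157 CPM with RX-5902, against 629, 594 and 570 CPM with DMSO, 4.06-fold lower (log2 fold change -2.02, adjusted p = 8.73e-28). After knockdown it stood at 213, 193 and 194 CPM in shDDX5 libraries, against 406, 446 and 437 CPM in shControl libraries, 2.18-fold lower (-1.12, adjusted p = 1.89e-05). GSDMC, on the far side, was too low to test, at most 0.42 CPM.

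KCNQ1OT1 (chr11:2608328-2699994, minus strand) is a single long exon that lies antisense inside KCNQ1. It was lower with RX-5902, at 6.49, 5.57 and 7.17 CPM, against 7.88, 7.48 and 8.47 CPM with DMSO. The groups were next to each other without overlap, a 1.27-fold fall (log2 fold change -0.35, standard error 0.11, adjusted p = 0.00577). The call was lost without RX-5902 replicate 2, at -0.26 (adjusted p = 0.0610). After knockdown it stood at 2.37, 4.70 and 4.86 CPM in shDDX5 libraries, against 4.42, 3.84 and 3.83 CPM in shControl libraries. Replicate 1 was the lowest and the other 2 the highest (-0.03, standard error 0.26, adjusted p = 0.941). Without that library the change was 0.24 (adjusted p = 0.148), and with a correction for gene length 0.40 (adjusted p = 0.0400).

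Of the genes in its imprinted cluster, the maternally expressed SLC22A18 rose after knockdown to 22.4, 19.1 and 22.3 CPM, against 7.93, 10.0 and 9.35 CPM in shControl libraries (2.30-fold higher, adjusted p = 7.12e-05). The host KCNQ1, a potassium channel gene, fell after knockdown by 1.13 (adjusted p = 0.000157) and did not pass with RX-5902, at -0.09. PHLDA2 did not pass after knockdown, at -0.02 (-0.20 without shDDX5 replicate 1), and rose with RX-5902 by 0.56 (adjusted p = 1.24e-05). NAP1L4, at the edge of the cluster, fell by 0.68 and by 0.14. CDKN1C, the growth-restraining gene of the cluster, was too low to test, at most 0.41 CPM. The strand setting is not given, but genes wholly under exons of the other strand held almost no reads, which is what counting without strand gives. Under such counting unspliced KCNQ1 RNA would count for KCNQ1OT1, and its part in these values was not tested.

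Set beside other lncRNA-class genes, the 7 took 4.56, 6.32 and 6.17% of the reads of the class in shDDX5 libraries, against 6.11, 5.82 and 5.81% in shControl libraries. With RX-5902 the share was 8.35, 8.03 and 8.00%, against 5.97, 6.20 and 6.25% with DMSO. The drug groups were apart in this share, while shDDX5 replicate 1 lay below all other libraries. The higher share with RX-5902 was not a rise of all 7. NEAT1 averaged 174 CPM against 57.7 with DMSO, and NORAD 311 against 202. OIP5-AS1, PVT1 and KCNQ1OT1 fell. NORAD ranked 3 and NEAT1 8 by level among the 284 lncRNA-class genes of at least 5 CPM in the drug experiment, counted without regard to length. After knockdown 545 lncRNA-class genes rose and 244 fell (median log2 fold change 0.20), and 686 and 325 without shDDX5 replicate 1. With RX-5902, 398 rose and 314 fell (median 0.05).

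**Figure D4:**
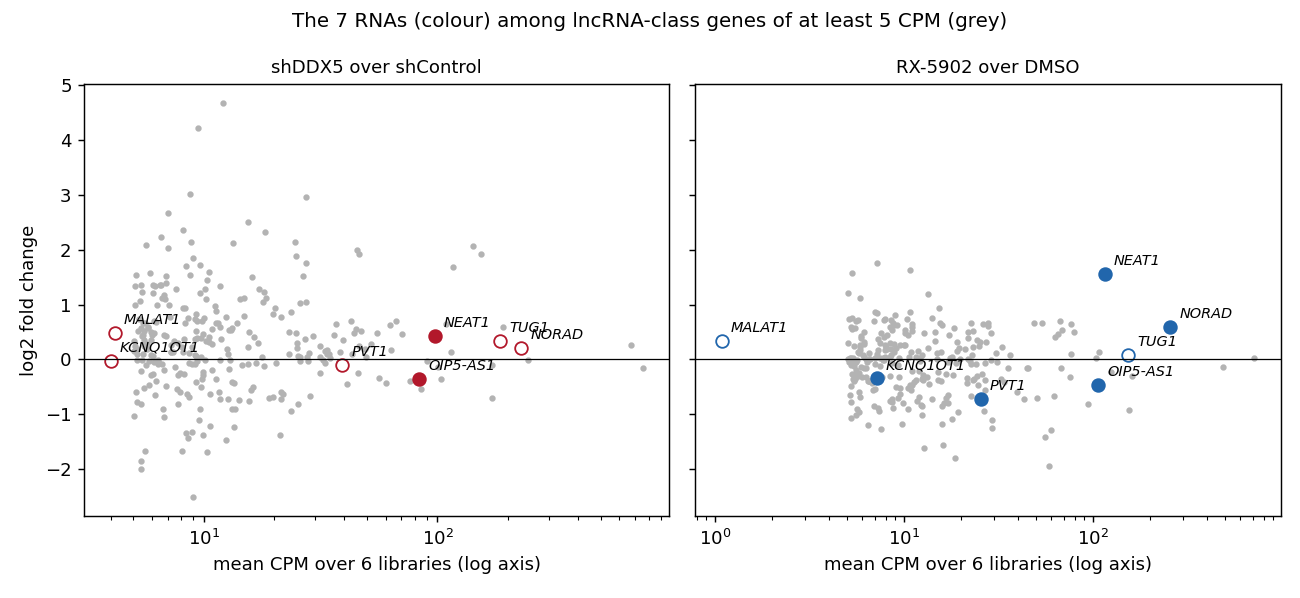
Log2 fold change against mean CPM (log axis) for lncRNA-class genes of at least 5 CPM (grey), with the 7 RNAs in colour, filled where they passed the test. NEAT1 stands near the top of the drug panel at 1.55 and within the grey cloud of the knockdown panel at 0.43.

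Among 60 other known long noncoding RNAs in the tables, 41 were tested after knockdown, of which 12 rose and 6 fell (median 0.03), beside the 46.2% of lncRNA-class genes that passed. Of 43 tested without shDDX5 replicate 1, 14 rose and 13 fell. MIR22HG, host of miR-22, rose by 1.75 (adjusted p = 5.48e-06) and LINC00667 by 1.13 (adjusted p = 3.74e-05). DLEU2, host of the miR-15a and miR-16-1 cluster, fell by 1.48 (adjusted p = 1.42e-05). With RX-5902, 11 of 45 rose and 14 fell (median 0.03), beside 44.2% of lncRNA-class genes. The snoRNA hosts SNHG15, SNHG12 and SNHG1 fell by 1.42, 1.25 and 0.93 (adjusted p = 1.07e-21, 7.70e-18 and 6.62e-20).

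More genes of nuclear RNA decay fell than rose in both experiments. Over all genes tested, 56.7% passed after knockdown (28.4% higher and 28.3% lower) and 64.1% with RX-5902 (32.2% and 31.9%). Of 19 genes of the nuclear exosome and its NEXT and PAXT adaptors, which clear many unstable nuclear RNAs, 1 rose and 13 fell after knockdown (median -0.50), and 1 rose and 9 fell with RX-5902 (median -0.13). Without shDDX5 replicate 1 the knockdown counts were 1 and 17. The exosome subunit genes EXOSC2 and EXOSC5 fell by 1.25 and 1.18 after knockdown and by 0.86 and 1.23 with RX-5902. EXOSC9 fell by 0.87 after knockdown, and EXOSC7 by 0.94 with RX-5902. Of 17 genes that write, read or erase m6A, a methyl mark found on MALAT1 and other nuclear RNAs, 1 rose and 8 fell in each experiment (median -0.25 after knockdown and -0.06 with RX-5902). These were 3 and 11 after knockdown when shDDX5 replicate 1 was left out. With all libraries, the share of m6A genes that passed lay below that of all genes in both experiments. The share of decay genes that passed did so with RX-5902 only. The reader HNRNPA2B1 fell by 1.04 after knockdown, with IGF2BP2 at -1.13 and the writer subunit VIRMA at -0.96. With RX-5902 the methyltransferase METTL3 fell by 0.35, YTHDC2 by 0.37 and YTHDF1 by 0.31.

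The library shDDX5 replicate 1 departed from its group with gene length. Its log2 deviation per doubling of gene length was -0.11, against -0.01 and -0.02 in the other shDDX5 libraries and 0.05 in each shControl library. NEAT1, with 22767 merged exon bases, did not follow it: replicate 1 stood at 113 CPM, between the other 2. KCNQ1OT1, TUG1, MALAT1, OIP5-AS1 and NORAD were lower in replicate 1 than in the other 2, and PVT1 was higher. Other measures set this library apart as well. Its mitochondrial share was 10.3%, against 8.09 and 7.71% in the other shDDX5 libraries, and its TMM factor was 0.87, against 0.99 in both. RN7SL1, a signal recognition particle RNA without a usual poly(A) tail, stood at 120, 17.7 and 22.1 CPM in shDDX5 libraries, against 8.38, 9.72 and 6.46 CPM in shControl libraries. Of 18 RNAs listed as lacking such a tail, 2 were tested after knockdown, RN7SL1 and the histone gene H4C8. Both rose, RN7SL1 by 2.66 and H4C8 by 2.08 (adjusted p = 0.0118 and 3.44e-05). In the fit without replicate 1 these rises were 1.28 and 1.98. H4C8, at 6.75, 5.62 and 5.29 CPM in shDDX5 libraries, did not set replicate 1 apart. Its entry spans 2163 exon bases, against 405 to 797 for the other listed histone genes, so its lack of a tail is uncertain here. With RX-5902, H4C8 rose and RN7SL1 did not pass. The part of these measures in the members' changes was not tested. The plot of deviation by gene length shows the trend in each library.

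**Figure D5:**
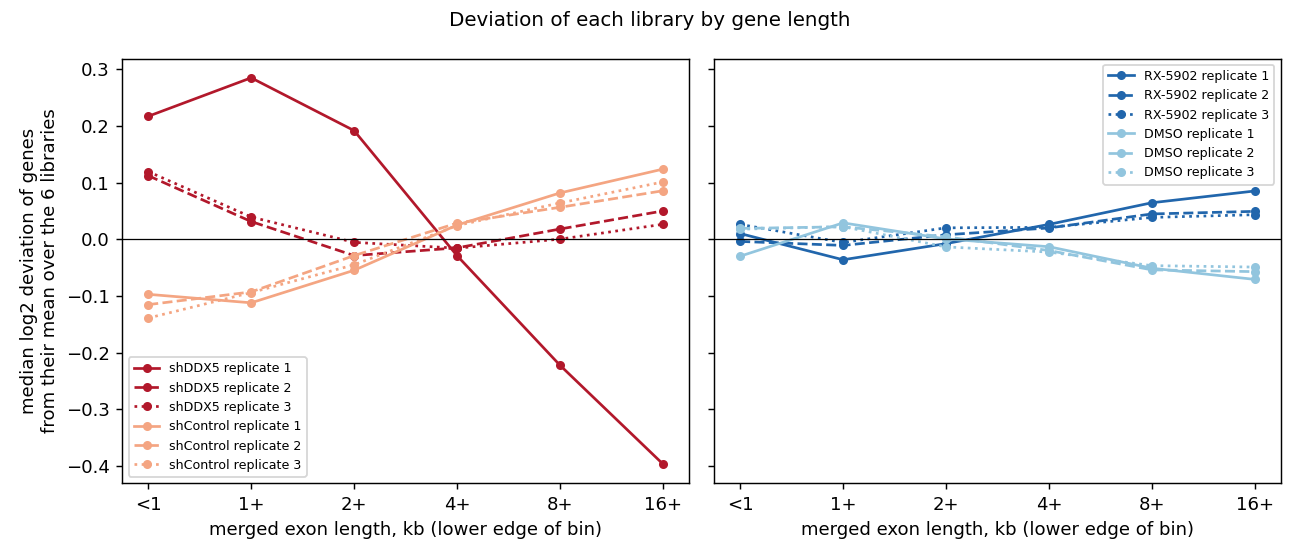
Median log2 deviation of genes from their mean over the 6 libraries of each experiment, by merged exon length in kb, with 1 line per library. The line of shDDX5 replicate 1 drops to -0.40 for genes of 16 kb and more, while all RX-5902 and DMSO lines stay within 0.1 of 0.

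By level over all 12 libraries, centred within each experiment, the genes most like each member were found among 9240 genes of at least 5 CPM, by the root mean square difference of log2 values. For NEAT1 these were MAP3K8, TACC2 and MICALL2, with differences of 0.09, 0.10 and 0.10. For NORAD they were OSBPL8, CDC27 and WDR37 (0.05, 0.06 and 0.06), and for TUG1 they were FOXN3 and RALGAPA2 (0.04 and 0.05). OIP5-AS1 was closest to CELF2, DHX36 and DCAF17 (0.06, 0.06 and 0.07), and PVT1 to RBM38 and TUBB6 (0.05 each). KCNQ1OT1 was closest to LYST and ALG11, at 0.09 and 0.10. MALAT1, on few reads, was closest to ENSG00000285979, FBXL18 and NBEAL1, at 0.18, 0.21 and 0.21. These likenesses describe 12 libraries that share 4 groups and the deviation of shDDX5 replicate 1.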

How the data were processed

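RNA-seq libraries of MOLM-14 cells were analysed from 2 tables, 1 per experiment. The deposited values were raw counts of reads per gene that the authors had not normalized. Per the submitters' processing notes the genome build was GRCh38.p13. The same notes list STAR 2.7.9a, featureCounts of Subread 2.0.3, Trim Galore 0.6.7, Picard 2.8.0, DESeq2 1.46.0 and R 4.4.2. For the annotation release, strand setting and RNA selection, the answer is not given in the sources used here. Trizol and column extraction preceded an MGIEasy Fast RNA library kit, per the labels' protocols.

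Groups and replicate numbers came from the labels. The line of 1 gene, wrapped over 3 lines, was rejoined. Symbols were matched for all but 103 of 61906 genes. Gene classes came from GENCODE 29 and RefSeq, and exon coordinates from the deposited tables.

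The 6 libraries of an experiment were fitted together in edgeR 4.0.16 (R 4.3.3), with its default expression filter, TMM scaling and a two-sided quasi-likelihood F test. P-values were adjusted by Benjamini-Hochberg over every gene tested, with 0.05 as the threshold, and each adjusted p given is of this kind. The word passed, and rose or fell, refers to this call. Standard errors were derived from the F statistic. The difference between the experiments was tested over 12 libraries with 4 group means. CPM values are scaled by TMM over all 12 libraries. Depth was similar across libraries. In the knockdown, standard errors of several members were larger with shDDX5 replicate 1 in the fit than without it.

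The members, the lists and the rule for named genes (the members, their neighbours, the 3 most similar genes for each, and up to 3 called genes of smallest p per list) were chosen with earlier results of these data known. Some genes that the rule names are not reported here. Alternatives were other scalings, DESeq2 1.42.0, limma-voom 3.58.1, other filters, a replicate block, corrections for length and GC, a minimum fold of 1.2, and leaving out each library. The length correction used the merged exon length of each gene. Promoter sequences are from RefSeq, and transcripts from GENCODE 29. Genome sequence was not used here.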

Additional observations from a re-analysis of the deposited data

Results flagged for a closer look

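3 of the 7 RNAs changed differently in the 2 experiments, by the edgeR test of the difference over all 12 libraries, in which 52.7% of 15386 genes passed. NEAT1 rose less after DDX5 knockdown than with RX-5902, with a difference of -1.14 on the log2 scale (standard error 0.09, adjusted p = 1.30e-07). NORAD likewise differed by -0.39 (standard error 0.12, adjusted p = 0.0153), and without shControl replicate 1 this was -0.31 (adjusted p = 0.0606). PVT1 differed by 0.60 (standard error 0.11, adjusted p = 0.000524), with log2 fold changes of -0.72 with RX-5902 and -0.10 after knockdown. The knockdown change did not pass, while without shDDX5 replicate 1 PVT1 passed as lower there too. The experiments differ in time, agent and delivery, so these cannot be told apart as the source of a difference.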

How the results depend on the processing

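With RX-5902, the calls of NEAT1, NORAD, OIP5-AS1 and PVT1 and their directions held under all 21 alternatives. TUG1 gained a call under upper-quartile factors (0.11), total counts (0.15), a stricter filter (0.11) and GC correction without or with a replicate block (0.13 each). KCNQ1OT1 lost it against a minimum fold of 1.2 (-0.35) and in the fit of 12 libraries (-0.31), and ran from -0.43 to -0.26 when single libraries were left out. The genes called fell to 5190 against the minimum fold.

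After knockdown, the call of NEAT1 held under all 21 alternatives, and its change grew to 0.73 under length correction (0.72 with the block). OIP5-AS1 lost its call under upper-quartile factors (-0.28), a stricter filter (-0.31), the replicate block (-0.36, adjusted p = 0.0616), length correction without or with the block (-0.17 each), GC correction without or with it (-0.20 each) and the minimum fold (-0.35). TUG1 was called under length correction (0.47, with the block 0.44), and NORAD under GC correction (0.33) and in the fit of 12 libraries (0.23). PVT1 turned sign under length correction (0.23, with the block 0.19). KCNQ1OT1 did so under upper-quartile factors (0.037), length correction (0.40, with the block 0.39) and GC correction (0.062, with the block 0.023). Members called numbered 1 under upper-quartile factors, the stricter filter, the replicate block, GC correction with the block and the minimum fold. With single libraries left out they ran from 1 to 6, MALAT1 from 0.079 to 0.86, TUG1 from 0.20 to 0.57, NORAD from 0.14 to 0.32, OIP5-AS1 from -0.42 to -0.23, PVT1 from -0.19 to -0.051 and KCNQ1OT1 from -0.20 to 0.24. The cause was not tested.

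For the difference, 6 members were called under length correction, and 2 to 6 with single libraries left out. OIP5-AS1 turned sign under total counts (-0.021) and MALAT1 under limma-voom (-0.075), and MALAT1 ran from -0.26 to 0.51 with single libraries left out. Total-count scaling moved the median of all genes to -0.18 there.

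The labels say nothing that ties same-numbered libraries, so the main fit did not pair them. Their deviations correlated between -0.10 and 0.05, and those of differently numbered libraries between -0.04 and 0.11. With 3 libraries in each group, these values cannot show whether a pairing was present. The block moved the genes called to 7592 after knockdown and 8696 with RX-5902. In the knockdown the standard error was 0.16 for MALAT1, 0.04 for TUG1 and 0.05 for NORAD without shDDX5 replicate 1, against 0.40, 0.21 and 0.12 with it.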
